A study of Saccharomyces cerevisiae BY4741 with 238 samples.

Results

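The LiCl dose gradient was made of 26 wells of Saccharomyces cerevisiae, chosen as the wells of the experiment labelled LR in which the cycloheximide, myriocin and rapamycin doses were all 0, out of 238 in the whole series. It comprised 24 wells with LiCl alone and 2 drug-free wells. The strain was BY4741, a haploid laboratory yeast of mating type a that lacks HIS3, LEU2, MET17 and URA3, and it carried no other alteration in any of these wells. The cultures grew in rich medium (YPD) in 96-well plates through 3 rounds of incubation and re-inoculation, with cell density read throughout, and 3′-end polyA RNA-seq was made at the end. LiCl was dissolved directly in YPD. Values are relative within a library, so fewer cells and less RNA per cell cannot be told apart.

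Lithium ion is taken up by yeast through the routes that carry potassium and sodium and is expelled mainly by the Ena ATPases, whose transcription is known to respond to the phosphatase calcineurin and to the osmotic stress kinase Hog1. Inside the cell it inhibits magnesium-dependent phosphatases, of which Met22 is known as a main target of salt toxicity. Met22 breaks down the nucleotide that sulfate assimilation leaves behind, which ties lithium to sulfur metabolism. Lithium is also known to inhibit phosphoglucomutase and the GSK3-family kinases.

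There were 13 doses including none, and each dose had 2 wells. The labels give a growth rate and a relative growth for every well, and their ratio took 2 values over the gradient, 0.682 per h in 13 wells and 0.639 per h in the other 13. These are called the higher and the lower growth-reference set here, since the labels do not say what the sets are, and each dose had 1 well in each. The 24 LiCl wells were put in 3 tiers by dose. The low tier held 8 wells at 2.29, 2.95, 3.35 and 3.80 mg/ml, the middle tier 10 wells at 4.31, 4.90, 5.56, 6.31 and 7.17 mg/ml, and the high tier 6 wells at 9.24, 10.5 and 13.5 mg/ml.

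Relative growth was 1.00 and 1.04 in the drug-free wells, 0.927 to 1.01 in the low tier, 0.687 to 0.874 in the middle tier and 0.511 to 0.632 in the high tier. Final optical density (OD600) moved with both the dose and the set. In the higher set it lay between 0.720 and 1.48, with 0.720 at the top dose against 1.38 in the drug-free well, and in the lower set between 0.425 and 0.760. The part of final density in the results was not tested beyond a fit with density as a term. Depth, estimated from tied values, ran from 64843 to 1095006 reads (median 736312). The 3 shallowest libraries were all in the higher set, with 78611 reads at 4.90 mg/ml, 64843 at 9.24 mg/ml and 143673 at 13.5 mg/ml. In the 9.24 mg/ml library of the higher set a gene with no reads is listed at 3.13 after the authors' normalization, which is the value of the deleted LEU2 there. Genes of mating type a were present in every well (MFA1 at 190 to 339), and MFA2 averaged 206, STE2 157, AGA2 35.2 and BAR1 31.6. Of the alpha-cell genes looked up, the pheromone gene MF(ALPHA)1 averaged 0.467 and the receptor gene STE3 0.778. The other alpha genes were higher, with averages of 4.96 for SAG1, 8.76 for MF(ALPHA)2, 14.5 for HMLALPHA1 and 70.7 for HMLALPHA2. HMLALPHA2 thus averaged above AGA2 and BAR1. The deleted LEU2, MET17 and URA3 each averaged 0.235, and HIS3, deleted only in part in this strain, averaged 15.8.

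**Figure D1:**
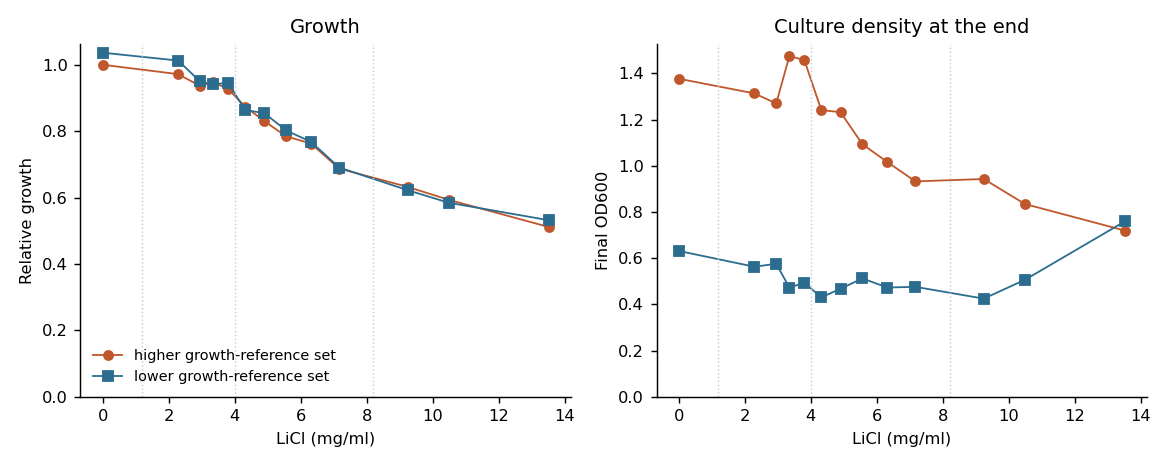
Relative growth and final OD600 (vertical axes) against the LiCl dose in mg/ml (horizontal axis), one point per well, with the higher and lower growth-reference sets in separate colours. Relative growth fell in step in both sets, to 0.511 and 0.532 at 13.5 mg/ml, while final OD600 of the higher set started at 1.38 and that of the lower set at 0.632.

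Each gene's log2(value + 1), where the value is the deposited normalized count, was regressed on growth inhibition (1 minus relative growth) with a term for the set. A slope is quoted as the log2 change at a relative growth of 0.5 against a relative growth of 1, with its standard error, so a slope of 1 stands for a doubling on that scale. The scale understates changes of genes at low values. A slope was called where the Benjamini-Hochberg adjusted p from limma over 5015 tested features was under 0.05 and the change at least 1.5-fold. By that rule 338 features were called (6.74%), of which 133 (2.65%) rose and 205 (4.09%) fell, and the median slope over all 5015 was -0.04. Without the 3 shallowest libraries, a set chosen after the data were seen, 522 were called, and 290 of them were among the 338. With final OD600 as a term 348 were called, 227 of them shared. Of the genes described below, GRE2 (slope 1.47), TRK2 (0.66), GYP7 (-0.47), MET28 (-0.70), MET2 (-0.89), FEN1 (-1.24), BNA7 (-1.07), COX6 (-0.51) and CIS1 (-0.75) lost their call with that term, and MET22 (-0.80) and FIT3 (-1.20) gained one. Without the 3 shallowest libraries GYP7 (-0.45), HIS4 (-0.54) and COX6 (-0.47) lost their call, and MET22 (-0.67), FIT3 (-0.86) and BDH2 (0.91) gained one.

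For each called gene the half-way dose was the lowest dose from which a running mean over 3 doses stayed past the midpoint between the gene's level at the bottom of the gradient and its mean over the 3 top doses. It lay in the low tier for 31 of the 338 genes, in the middle tier for 216 and in the high tier for 91, with a median of 6.31 mg/ml. These doses are a description, since genes called for a straight slope tend to pass half-way inside the gradient. No feature was called between the low tier and the drug-free wells (0 of 5015, limma; 116 at an unadjusted p under 0.05). The middle tier against no drug gave 18 calls (0.359%), 16 higher (0.319%) and 2 lower (0.0399%), and the high tier against no drug gave 149 (2.97%), with 76 higher (1.52%) and 73 lower (1.46%). These comparisons share 2 drug-free wells, and with the drug-free well of the lower or of the higher set left out the high tier against no drug gave 4 or 13 calls. The high tier against the middle tier gave 67 (1.34%), with 20 higher (0.399%) and 47 lower (0.937%), and the middle against the low tier gave none (491 at an unadjusted p under 0.05).

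The closest to an early response was BDH2, a dehydrogenase-family gene next to the butanediol dehydrogenase gene BDH1, which is named here after its values were seen. BDH2 was at 64.3 and 49.6 in the drug-free wells of the higher and lower set, at 92.8 to 129 in the low tier (median 118), at 93.1 to 168 in the middle tier (median 147) and at 86.4 to 177.5 in the high tier (median 133). Every LiCl well lay above both drug-free wells, and the 3 LiCl tiers overlapped each other. Its low-tier difference from no drug was 1.02 ± 0.193 on the log2 scale (SE, n = 8 against 2), with a limma adjusted p of 0.0517, and its slope of 0.62 ± 0.215 was not called (limma, adjusted p = 0.0544). Without the 3 shallowest libraries it was the 1 feature called at the low tier.

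A few upstream sequences are shown first, since members of the largest groups carry them: the E-box core read by the phosphate factor Pho4 and the sulfur factor Cbf1 (CACGTG), the stress response element of Msn2 and Msn4 (AGGGG), and the core of the Gcn4 site of amino acid synthesis genes (TGACTC). All were searched on both strands in the 300 bases before the start codon of 6007 coding genes (RefSeq annotation, build R64), and matches in capitals are descriptions of the letters only. Each stretch runs from 300 to 61 bases before the start codon and reads toward the gene. Capitals mark only the motif named for that gene. PHO5 and MET16 carry the E-box core, TKL2 and CTT1 the stress element on its other strand (CCCCT), and HIS5 the Gcn4 core. The MET16 stretch also holds 1 Gcn4 core, left in lower case.
PHO5, chrII:431012-431251, minus strand: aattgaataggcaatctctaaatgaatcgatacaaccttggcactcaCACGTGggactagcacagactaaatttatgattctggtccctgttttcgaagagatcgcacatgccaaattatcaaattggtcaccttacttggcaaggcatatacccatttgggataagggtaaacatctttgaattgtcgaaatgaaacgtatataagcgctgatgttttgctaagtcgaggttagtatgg
MET16, chrXVI:877693-877932, minus strand: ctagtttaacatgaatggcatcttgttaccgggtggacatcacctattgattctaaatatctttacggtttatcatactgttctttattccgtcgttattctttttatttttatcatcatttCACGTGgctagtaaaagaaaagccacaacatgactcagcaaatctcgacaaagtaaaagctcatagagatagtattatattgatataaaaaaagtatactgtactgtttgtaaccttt
TKL2, chrII:476498-476737, minus strand: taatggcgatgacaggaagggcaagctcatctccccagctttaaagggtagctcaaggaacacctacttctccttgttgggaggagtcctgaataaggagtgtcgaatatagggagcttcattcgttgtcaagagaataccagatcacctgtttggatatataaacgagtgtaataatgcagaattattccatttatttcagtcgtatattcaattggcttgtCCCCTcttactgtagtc
CTT1, chrVII:654334-654573, plus strand: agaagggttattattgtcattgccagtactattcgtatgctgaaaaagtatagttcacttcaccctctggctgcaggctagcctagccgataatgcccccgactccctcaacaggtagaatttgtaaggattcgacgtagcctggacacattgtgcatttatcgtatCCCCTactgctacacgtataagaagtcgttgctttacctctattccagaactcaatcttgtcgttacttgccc
HIS5, chrIX:142628-142867, plus strand: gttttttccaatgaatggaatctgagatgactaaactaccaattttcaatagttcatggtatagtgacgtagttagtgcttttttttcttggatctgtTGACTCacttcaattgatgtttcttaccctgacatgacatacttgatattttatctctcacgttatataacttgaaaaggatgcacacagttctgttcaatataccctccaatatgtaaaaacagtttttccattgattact
CACGTG lay in 3.56% of all the windows, AGGGG in 22.2% and TGACTC in 7.76%. Among the phosphate genes tested 7 of 20 windows held CACGTG, and among those with a called slope 5 of 8 (PHO5, PHO11, PHO12, SPL2 and VTC1). Of the sulfate assimilation genes 6 of 12 held it, including all 3 with a called slope, and of the methionine cycle genes 4 of 21 and 1 of the 13 called (SAH1). AGGGG lay in 21 of 29 general stress windows and 6 of the 8 called, in 12 of 25 windows of the high-osmolarity glycerol (HOG) pathway and 3 of the 6 called, and in 9 of 13 of the pentose phosphate pathway, including the 4 called members. TGACTC lay in 9 of 10 arginine windows, 5 of 6 histidine, 4 of 9 lysine and 5 of 15 aromatic windows. Among the called members it lay in 5 of 5 arginine, 3 of 3 histidine, 2 of 3 lysine and 2 of 6 aromatic windows. The 3 motifs do not overlap one another as words.

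Of 9 tested genes of the lithium-sensitive phosphatases and their relatives 1 was called, where 6.74% of all features were called. It was PGM1, the minor phosphoglucomutase, and the list's median slope was -0.47 (0.10 without the 3 shallowest libraries). PGM1 was at 47.1 and 52.2 in the drug-free wells of the higher and lower set, at 37.1 to 56.8 in the low tier, 35.3 to 77.2 in the middle tier and 15.0 to 34.1 in the high tier. All 6 high-tier wells were below both drug-free wells and below every middle and low well. Its slope was -0.90 ± 0.223 (limma, adjusted p = 0.00573). The major isoform PGM2 averaged 685 in the high tier against 567 without drug and was not called (slope 0.29 ± 0.105).

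MET22, whose enzyme is the sulfur-linked lithium target, was at 58.6 and 78.1 without drug, at 53.3 to 90.4 in the low tier, 52.3 to 82.9 in the middle tier and 40.3 to 86.4 in the high tier. The tiers overlapped throughout. The slope of MET22 was -0.47 ± 0.153, with a limma adjusted p of 0.0392 but under the 1.5-fold size. It was called at -0.67 without the 3 shallowest libraries, and at -0.80 with final OD600 as a term. The inositol monophosphatase genes INM1 and INM2 had slopes of -0.49 ± 0.391 and -0.70 ± 0.418, neither called, and INO1, for inositol synthesis, was below the filter on low values. None of 3 tested GSK3-family kinase genes was called.

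Cation transport showed 2 called genes of 23, both higher, with a median slope of 0.18. Of all features 6.74% were called and 2.65% were called higher. VHS3, which encodes an inhibitory subunit of the Ppz1 phosphatase that restrains cation efflux, was at 72.8 and 69.4 without drug, at 71.6 to 97.1 in the low tier (median 87), 77.1 to 118 in the middle tier (median 102) and 97 to 162 in the high tier (median 118). The tiers overlapped with their neighbours, but each median lay above the one before. Its slope was 0.84 ± 0.108 (limma, adjusted p = 2.57e-06). TRK2, a potassium uptake gene, averaged 16.1 without drug, 27.4, 29.7 and 33.6 in the low, middle and high tier (slope 0.66 ± 0.209, limma adjusted p = 0.0325), and lost its call when any of 7 single libraries was left out. ENA1, the lithium and sodium pump gene, was at 32.3 and 43 without drug, 33 to 61.1 in the low tier, 20.3 to 74.5 in the middle tier and 24.6 to 57.6 in the high tier, so that the groups overlapped. The middle-tier minimum of 20.3 was in the shallow higher-set library at 4.90 mg/ml. All other middle-tier wells lay above both drug-free wells. The slope of ENA1 was 0.30 ± 0.234 and was not called (limma, adjusted p = 0.443). Without the 3 shallowest libraries it was 0.56 (limma, adjusted p = 0.0287), under the 1.5-fold size and so not called.

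Of 16 calcineurin pathway genes 3 fell and none rose, where 4.09% of all features fell and 2.65% rose. The list's median slope was -0.26. RCN1, a calcineurin regulator and target of the calcineurin-activated factor Crz1, was at 49.2 and 60.5 without drug, at 24.7 to 46.4 in the low tier (median 40.3), 18.5 to 41.5 in the middle tier (median 24.5) and 11.2 to 29.1 in the high tier (median 17). All 24 LiCl wells were below both drug-free wells. The slope of RCN1 was -1.44 ± 0.229 (limma, adjusted p = 4.36e-05). The cell surface protease gene YPS1 had a slope of -1.20 ± 0.243. The third, GYP7, was at -0.59 ± 0.180 and lost its call without the 3 shallowest libraries. CRZ1 itself had a slope of 0.11 ± 0.197 and was not called.

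Of 12 tested sulfate assimilation genes 3 fell (MET16, MET14 and MET28) and none rose, where 4.09% of all features fell and 2.65% rose. The list's median slope was -0.30. Half-way doses of the 3 were 2.95 to 3.80 mg/ml, but neither they nor any other feature was called between the low tier and no drug. MET16, which reduces activated sulfate, was at 53.6 and 71.7 without drug, at 26.2 to 57 in the low tier (median 48.4), 16.8 to 52.3 in the middle tier (median 24.6) and 12.5 to 32.9 in the high tier (median 23.4). The middle and high tiers lay wholly below the drug-free wells, and the low tier overlapped with them. The slope of MET16 was -1.47 ± 0.259 (limma, adjusted p = 0.000163).

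MET14, which makes activated sulfate, was at 40.5 and 68.6 without drug and at 12 to 41.7 in the low tier (median 28.2), 14 to 26.7 in the middle tier (median 22.4) and 9.33 to 34 in the high tier (median 17.8). The middle and high tiers lay below both drug-free wells. In the higher set MET14 was at 12 already at 2.95 mg/ml, against 40.5 without drug. The slope of MET14 was -0.97 ± 0.295 (limma, adjusted p = 0.0255), but its call was lost when any of 5 single libraries, both drug-free ones among them, was left out, and with the LiCl wells alone it was -0.65 and not called. MET28, a cofactor of sulfur gene transcription, was at -0.75 ± 0.233 and lost its call when any 1 of 5 libraries was left out. Without the 3 shallowest libraries 6 of the 12 were called, all lower, and with final OD600 as a term 2 were.

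Of 21 tested genes of the methionine cycle and transsulfuration 13 fell and none rose, where 4.09% of all features fell and 2.65% rose. The list's median slope was -0.76. MET6, the methionine synthase gene, was at 153 and 265 in the drug-free wells of the higher and lower set, at 73 to 172 in the low tier (median 136), 57 to 144 in the middle tier (median 89) and 41.6 to 97 in the high tier (median 62.1). The high and middle tiers lay below both drug-free wells, and the low tier overlapped with them. The slope of MET6 in the higher set was -0.66 and in the lower set -2.29. SAM1 and SAM2, which make S-adenosylmethionine, had slopes of -1.26 ± 0.195 and -1.22 ± 0.323, STR3 (peroxisomal cystathionine lyase) -1.31 ± 0.333 and SAH1, which clears S-adenosylhomocysteine, -1.10 ± 0.173. The list's half-way doses ran from 4.31 to 10.5 mg/ml with a median of 5.56. It also held 15 and 13 called members, all lower, without the 3 shallowest libraries and with final OD600 as a term. MET17 is deleted in the strain, so the last step of sulfide incorporation is missing in every well.

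Pho4 switches the phosphate starvation regulon on when phosphate is scarce. Of 20 tested members 8 fell and none rose, where 4.09% of all features fell and 2.65% rose. The list's median slope was -0.49, and 6 of the 8 were among the late genes defined below. The half-way dose lay in the middle tier for 7 of the 8 and in the high tier for 1, with a median of 6.74 mg/ml beside 6.31 for all called genes. PHO5, the secreted acid phosphatase whose window is printed above, was at 203 and 238 without drug, at 150 to 248 in the low tier (median 214), 84.1 to 205 in the middle tier (median 129) and 39.1 to 145 in the high tier (median 56.7). The low tier overlapped with the drug-free wells, and all high-tier wells lay below them. In the lower set PHO5 stepped down from 4.31 mg/ml on, with 205, 139, 115, 92.6, 84.1, 57.6, 55.8 and 39.1 at the 8 doses up to 13.5 mg/ml. Its slope over both sets, -2.32 ± 0.179 (limma, adjusted p = 1.32e-10), was the largest fall of the 5015 tested features.

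SPL2, an inhibitor of low-affinity phosphate uptake, was at 131 and 142 without drug, at 83.4 to 141 in the low tier (median 113), 50.8 to 131 in the middle tier (median 65.5) and 25.4 to 76.1 in the high tier (median 43.1). The high tier lay below the drug-free wells and below every low-tier well. Its slope was -1.91 ± 0.211 (limma, adjusted p = 2.63e-07). PHO84, the high-affinity phosphate transporter gene, was at 113 and 158 without drug, at 99.6 to 155 in the low tier, 61.3 to 164 in the middle tier and 40.3 to 97 in the high tier. Only its high tier lay below both drug-free wells, and its slope was -1.06 ± 0.199 (limma, adjusted p = 0.000355). PHO8 (vacuolar phosphatase), VTC1 and VTC3 (polyphosphate synthesis) had slopes of -1.01 ± 0.160, -0.66 ± 0.108 and -0.62 ± 0.107. PHO11 and PHO12, at -1.74 ± 0.226 and -1.87 ± 0.211, are near-identical copies and their reads may not be separable. Both alternatives, without the 3 shallowest libraries and with final OD600 as a term, called 10 of the 20, all lower.

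Of 25 genes of the HOG pathway and its targets 6 rose and none fell, where 2.65% of all features rose and 4.09% fell. The list's median slope was 0.09. ALD3, a stress-inducible cytosolic aldehyde dehydrogenase, was at 123 and 79.8 in the drug-free wells of the higher and lower set, at 109 to 255 in the low tier (median 158), 176.2 to 462 in the middle tier (median 251) and 216 to 1105 in the high tier (median 471). All middle and high wells lay above both drug-free wells, and the low tier overlapped with them. Its tandem neighbour ALD2 had a slope of 1.06 ± 0.192. SIP18, a desiccation protein gene, had a slope of 1.91 ± 0.497 and lost its call without the lower-set library at 13.5 mg/ml (1.34), and GRE2, a methylglyoxal reductase gene, had 1.35 ± 0.416 and lost it when any 1 of 5 libraries was left out. RTN2, a reticulon-family gene, had a slope of 1.10 ± 0.208.

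Neither GPD1 nor HOG1 had a called slope. GPD1, which makes the osmolyte precursor glycerol 3-phosphate, was at 291 and 274 without drug and at 283 to 375, 303 to 373 and 233 to 405 in the low, middle and high tier, with a slope of 0.09 ± 0.103. HOG1, the kinase gene, was at 90.3 and 83.1 without drug, at 83.6 to 108 in the middle tier and at 86.4 to 104 in the high tier, with a slope of 0.08 ± 0.0958. The adjusted p of these slopes was 0.61 and 0.652 (limma). The middle tier of GPD1 lay above both drug-free wells, while its other tiers and all tiers of HOG1 overlapped with them. GPD1 did have a called curved course, as defined below, with the middle doses above a straight line (bow 0.35 ± 0.0731, limma adjusted p = 0.0166).

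Of 29 general stress genes 8 rose and none fell, where 2.65% of all features rose and 4.09% fell. The list's median slope was 0.31. CTT1, the cytosolic catalase, was at 172 and 101 in the drug-free wells of the higher and lower set, at 138 to 333 in the low tier (median 214), 194.8 to 421 in the middle tier (median 282) and 275 to 761 in the high tier (median 446). The middle and high tiers lay above both drug-free wells, and the low tier overlapped with them. The slope of CTT1 was 1.64 ± 0.180 (limma, adjusted p = 2.63e-07). HSP12, a membrane-stabilising stress protein gene, was at 257 and 137 without drug, at 222 to 626, 236 to 525.8 and 447 to 1094 in the low, middle and high tier. The high tier of HSP12 lay above both drug-free wells, and its slope was 1.42 ± 0.211 (limma, adjusted p = 1.91e-05). Smaller rises were those of MSC1 (0.80 ± 0.143), SSA3, an Hsp70 gene (0.78 ± 0.169), OM45 of the mitochondrial outer membrane (0.76 ± 0.147), DDR2 (0.75 ± 0.190), YRO2 (0.69 ± 0.123) and the cell wall gene SPI1 (0.66 ± 0.112). With final OD600 as a term 12 of the 29 were called, all higher. Of 26 heat shock genes SSA3 alone was called, where 6.74% of all features were called. The fit with final OD600 called 4 of the 26, all higher.

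The largest rise of a gene with a known enzyme was that of TKL2, the minor transketolase of the pentose phosphate pathway. TKL2 was at 7.87 and 6.14 without drug, at 4.00 to 14.3 in the low tier (median 9.49), 9.02 to 27.9 in the middle tier (median 14.9) and 3.13 to 146 in the high tier (median 43.3). The lowest high-tier value is the no-read value of the shallow 9.24 mg/ml library, and the other 5 high wells, at 28.7 to 146, lay above every other well. The slope of TKL2 was 3.01 ± 0.488 (limma, adjusted p = 5.54e-05). The dubious reading frame YBR116C next to it had a slope of 3.13 ± 0.511, and their reads may not be separable, since the counting strand is not given in the sources used here. The same holds for YMR175W-A beside SIP18.

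Of the 13 tested pentose phosphate genes 4 rose and none fell, where 2.65% of all features rose and 4.09% fell. The list's median slope was 0.00. NQM1, a transaldolase paralog, was at 27.9 and 19.7 without drug, at 32.3 to 66.5 in the low tier (median 42.8), 37.4 to 85 in the middle tier (median 52.7) and 72.1 to 195.9 in the high tier (median 112). Every LiCl well of NQM1 lay above both drug-free wells, and its slope was 1.98 ± 0.195 (limma, adjusted p = 3.69e-08). GND2, the minor 6-phosphogluconate dehydrogenase gene, had a slope of 1.27 ± 0.317, and SOL4, a 6-phosphogluconolactonase gene, 0.62 ± 0.122. The call of SOL4 was lost without either of 2 libraries.

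Of 17 hexose transport and sensing genes 3 rose and none fell, where 2.65% of all features rose and 4.09% fell. The list's median slope was 0.11. HXT1, the low-affinity transporter gene induced by high glucose, was at 11.3 and 10.3 without drug, at 7.59 to 24.7 in the low tier (median 15.1), 20.3 to 61.5 in the middle tier (median 38.7) and 15.0 to 83.1 in the high tier (median 54.4). All middle and high wells lay above both drug-free wells. The slope of HXT1 was 2.50 ± 0.321 (limma, adjusted p = 2.29e-06), and it had 3.12 without the 3 shallowest libraries. HXT5, a transporter gene of slow growth, had a slope of 1.16 ± 0.241, and MTH1, a repressor of hexose transporter genes, 0.73 ± 0.150. Of 18 trehalose and glycogen genes, with a median slope of 0.31, 1 was called, TPS2 (0.60 ± 0.116), where 6.74% of all features were called. TPS2 lost its call when any 1 of 5 libraries was left out. In the list 3 of the 18 rose without the 3 shallowest libraries, and 7 rose with final OD600 as a term.

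**Figure D2:**
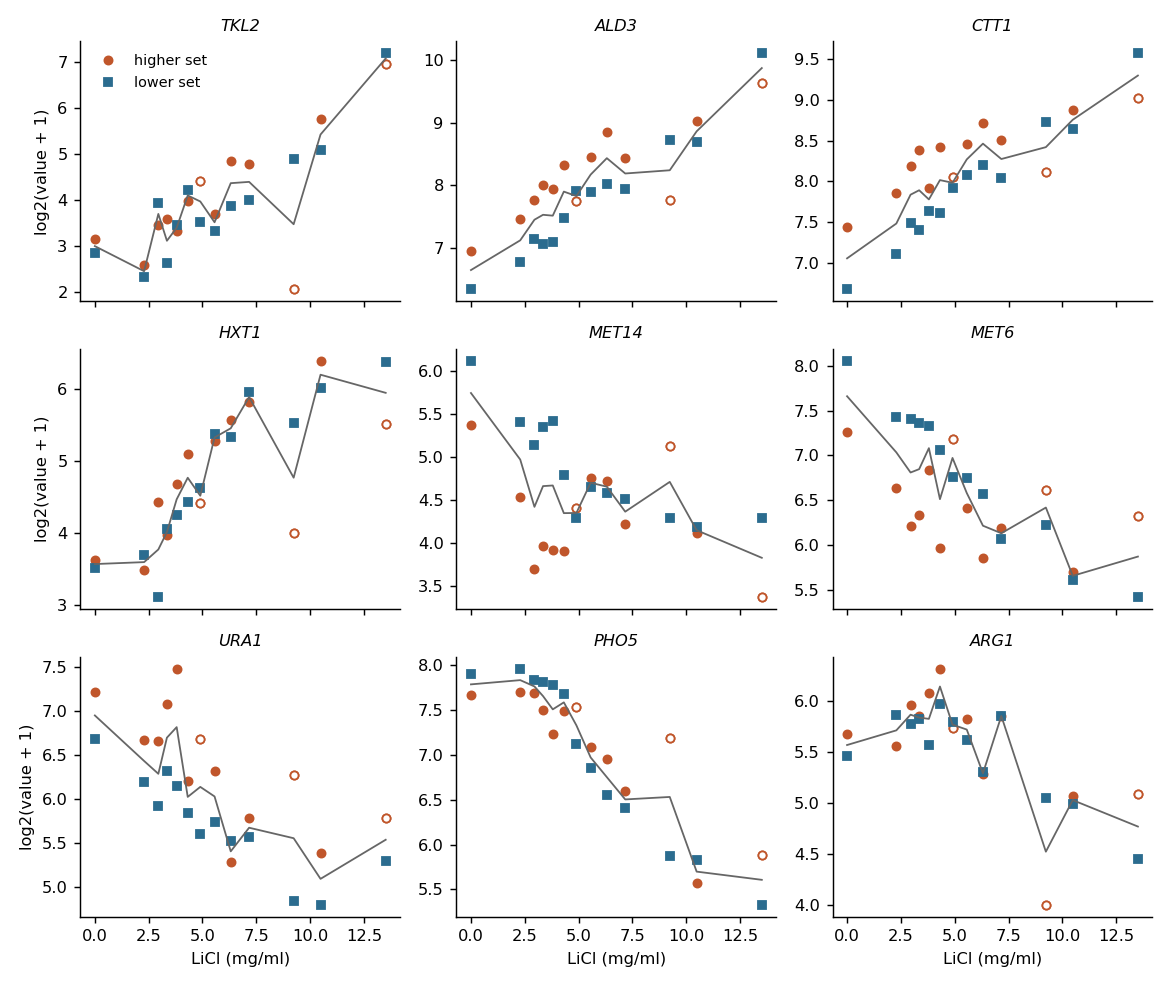
Log2(value + 1) (vertical axes) against LiCl dose in mg/ml (horizontal axes) for 9 genes in every well, coloured by growth-reference set, with open symbols for the 3 shallowest libraries and a grey line for the mean of both sets. TKL2, ALD3, CTT1 and HXT1 rise toward 13.5 mg/ml, MET14 is lower from the first doses on, and the high-tier median of PHO5, 56.7, lies below its middle-tier median of 129.

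Amino acid synthesis genes fell in several pathways, where 4.09% of all features fell. None of the following lists held a called rise, where 2.65% of all features rose. The arginine list had 5 of 11 lower (median slope -0.58), lysine 3 of 9 (-0.64), histidine 3 of 6 (-0.63), branched-chain 3 of 11 (-0.45) and aromatic 6 of 15 (-0.42). ARG1, for argininosuccinate synthetase, averaged 46.5 without drug and 55.3, 54 and 27.3 in the low, middle and high tier, with a slope of -1.08 ± 0.232 (limma, adjusted p = 0.00146). HIS5, whose window is printed above and whose enzyme is histidinol-phosphate aminotransferase, was at 127 and 123 without drug, at 119 to 167 in the low tier (median 151), 102 to 139 in the middle tier (median 118) and 64.3 to 90.8 in the high tier (median 83.9). The high tier lay below every other well, while the other tiers overlapped with the drug-free wells. Its slope was -0.95 ± 0.132 (limma, adjusted p = 7.03e-06).

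LYS2, the aminoadipate reductase gene, was at 74.9 and 73.2 without drug, at 73.9 to 93.4 in the low tier (median 83), 55.3 to 85 in the middle tier (median 67.7) and 38.1 to 56.5 in the high tier (median 50.2). Only the high tier lay wholly below the drug-free wells. The slope of LYS2 was -0.94 ± 0.123 (limma, adjusted p = 2.89e-06). ARG7, for an ornithine acetyltransferase, had a slope of -1.10 ± 0.133, ARO10, for a decarboxylase of aromatic amino acid breakdown rather than synthesis, -0.86 ± 0.166, and ARO1, for the pentafunctional aromatic enzyme, -0.72 ± 0.137. HIS4 (-0.59 ± 0.109) lost its call without the 3 shallowest libraries and HIS7 (-0.67 ± 0.183) without the lower-set library at 13.5 mg/ml.

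Of 10 tested pyrimidine genes 5 fell and none rose, where 4.09% of all features fell and 2.65% rose. The list's median slope was -0.57. Half-way doses of the 5 were 4.31 to 7.17 mg/ml with a median of 5.56, beside medians of 7.17 for arginine and 9.24 for histidine genes. URA1, dihydroorotate dehydrogenase, was at 147 and 102 in the drug-free wells of the higher and lower set, at 59.3 to 177.3 in the low tier (median 89), 37.8 to 101 in the middle tier (median 53.1) and 26.7 to 76.1 in the high tier (median 39.4). The middle and high tiers lay below both drug-free wells, and the low tier spanned them. The slope of URA1 was -1.58 ± 0.207 (limma, adjusted p = 2.89e-06). FUI1, the uridine permease gene, had a slope of -1.60 ± 0.257, and URA2, whose enzyme starts the pathway, -0.89 ± 0.121. The strain lacks URA3, so it depends on uracil or uridine from the medium. Of 18 purine genes 2 fell, IMD2 (-0.93 ± 0.177) and ADE8, where 4.09% of all features fell. The purine count was 3 without the 3 shallowest libraries and 8 with final OD600 as a term, all lower.

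Of 10 kynurenine pathway genes, which turn tryptophan into NAD, 6 fell and none rose, where 4.09% of all features fell and 2.65% rose. The list's median slope was -0.70. BNA1, the hydroxyanthranilate dioxygenase gene, was at 127 and 113 without drug, at 103 to 145 in the low tier (median 126), 61.3 to 111 in the middle tier (median 76.3) and 51.6 to 86.4 in the high tier (median 62.2). The middle and high tiers lay below both drug-free wells. The slope of BNA1 was -1.18 ± 0.134 (limma, adjusted p = 3.48e-07). BNA7 (-1.22 ± 0.304), BNA3 (-0.94 ± 0.139) and BNA4 (-0.76 ± 0.207), for other steps, fell as well. With final OD600 as a term 4 of the 10 were called.

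Of 138 cytosolic ribosomal protein genes 5 fell and none rose, where 4.09% of all features fell, with a median slope of -0.10. RPL8A was at 302 and 284 without drug and at 252 to 310, 218 to 295 and 132 to 265 in the low, middle and high tier (slope -0.68 ± 0.106, limma adjusted p = 3.51e-05), and its call was lost without the lower-set library at 13.5 mg/ml. Of 67 mitochondrial ribosomal protein genes 8 fell, with a median of -0.31, and 3 were called with final OD600 as a term. Among 42 genes of large subunit assembly 3 rose (DRS1, RLP24 and PWP1), with a median of 0.25, where 2.65% of all features rose. Without the 3 shallowest libraries 11 rose. The list's median slope was 0.67 in the lower and -0.03 in the higher set, without a test of the difference. RLP24 lost its call when any 1 of 8 libraries was left out. With the LiCl wells alone neither DRS1 nor RLP24 was called. DRS1, a ribosome assembly helicase gene, was at 16.6 and 13.8 without drug and at 15.2 to 33.3, 18.7 to 52.3 and 24.2 to 53.1 in the low, middle and high tier, with a slope of 0.87 ± 0.239. Among 38 oxidative phosphorylation genes 1 rose (CYC7, the minor cytochrome c) and 1 fell (COX6), where 2.65% of all features rose and 4.09% fell. No gene was called among 16 nitrogen catabolite repression genes, 16 genes of the G2/M phase or 3 galactose genes. When the 3 shallowest libraries were left out, 3 G2/M genes rose and 1 nitrogen catabolite repression gene fell.

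**Figure D3:**
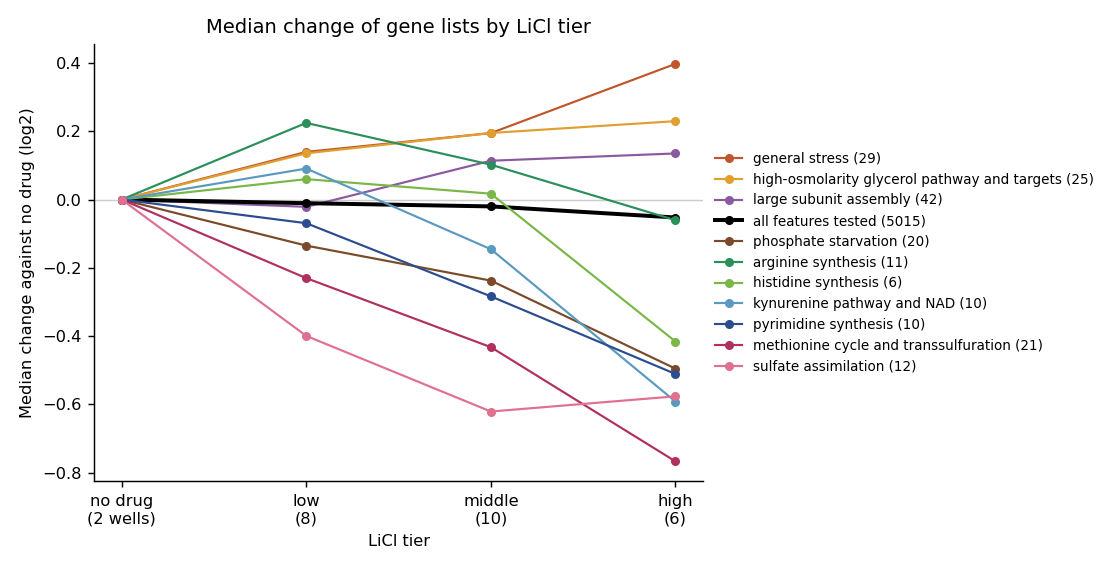
Median log2 difference from the drug-free wells (vertical axis) of the tested members of each gene list in the low, middle and high LiCl tier (horizontal axis). Sulfate assimilation is at -0.40, -0.62 and -0.58, and the methionine cycle goes down step by step to -0.77 in the high tier.

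Late responders were genes with a called slope that were also called between the high and middle tier in the same direction and whose low-tier difference from no drug was under 1.5-fold in that direction. There were 47 of 5015 (0.937%), 12 higher (0.239%) and 35 lower (0.698%). ICY2, a gene of unknown function, was at 49.2 and 30.3 without drug, at 32.7 to 59.7 in the low tier (median 42.3), 26.3 to 42.3 in the middle tier (median 33.1) and 11.2 to 18.2 in the high tier (median 15.2). The high tier lay below every other well. The high-tier values of ICY2 were lower than the middle-tier values by a log2 difference of -1.08 ± 0.135 (limma, adjusted p = 3.17e-05). OPT2, an oligopeptide transporter gene, was at 22.5 and 20.6 without drug, at 21.2 to 44.1 in the low tier (median 33.2), 12.2 to 38.4 in the middle tier (median 21.4) and 3.56 to 24.6 in the high tier (median 8.67). Every tier overlapped with the drug-free wells, with the highest median in the low tier, and its high minus middle difference was -1.34 ± 0.278. FEN1, also called ELO2, a fatty acid elongase gene, had a high minus middle difference of -1.13 ± 0.256, and lost its slope call without the lower-set library at 13.5 mg/ml.

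The 35 late falls held 6 phosphate genes (PHO5, SPL2, PHO11, PHO12, PHO8 and PHO84), 3 arginine, 2 histidine and 2 methionine cycle genes, and both GCV1 and GCV2, which encode subunits of the glycine cleavage complex. GCV2 averaged 110 without drug and 99.3, 91.6 and 50.7 in the low, middle and high tier. The 12 late rises held the filamentation factor gene TEC1, averaging 28 without drug and 29.7, 35.8 and 56.7 in the 3 tiers, the mannosylphosphate gene MNN4, averaging 80.5, 84.4, 91.3 and 155 in the same order, and DDR2 and RTN2. Leaving out single libraries gave 23 to 72 late genes.

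A curved course, tested as the quadratic term of the regression, was called in 52 features (1.04%), 39 with the middle doses above a straight line (0.778%) and 13 with them below (0.259%). Of the 52, 7 had a called slope, where 6.74% of all features had one. The list of 18 purine genes held 4 of the 52. PDR12, a plasma membrane exporter of weak acids, was at 33.7 and 47.5 without drug, at 41.1 to 102 in the low tier (median 56.4), 44 to 118 in the middle tier (median 87) and 29.1 to 102 in the high tier (median 67.1). The middle tier had the highest median, and all tiers overlapped. Its bow, the height of the curve over the straight line midway between a relative growth of 1 and 0.5, was 1.08 ± 0.156 on the log2 scale (limma, adjusted p = 0.000492). POP1, of RNase P, averaged 17.1 without drug and 31, 35.8 and 21.2 in the low, middle and high tier (bow 1.04 ± 0.203), and the exosome gene RRP4 averaged 8.19, 11.5, 15.3 and 12.5 in the same order (bow 1.41 ± 0.352). With the LiCl wells alone 1 curved course was called in all, and without the 3 shallowest libraries 103 were.

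Of the 338 called slopes 337 had the same sign in both growth-reference sets. Both sets entered the call, so this is no sign of stability. In one fit over all 26 wells with a slope for each set, and so a shared spread, 257 (5.12%) of all features were called in the higher set, 1.62% higher and 3.51% lower, and 280 (5.58%) in the lower set, 2.71% higher and 2.87% lower, with 66 of the 338 called in both. When the 13 wells of each set were fitted alone, 52 were called in the higher set and 531 in the lower set. The list medians of the slope were 0.00 in the higher and -0.72 in the lower set for sulfate assimilation, -0.53 and -1.01 for the methionine cycle, and -0.34 and -0.67 for phosphate, each without a test of the difference. A difference between the sets was called for 5 genes (0.0997%; 544 at an unadjusted p under 0.05), 3 with the larger slope in the higher set (0.0598%) and 2 in the lower set (0.0399%). With dose as a block, an alternative chosen after the data were seen, 22 were called. CHA1, a serine and threonine deaminase gene, had slopes of 1.52 in the higher and -0.81 in the lower set. FIT3, for an iron-binding cell wall protein, had 0.83 and -1.51, and SAM3, the S-adenosylmethionine permease gene, had -0.22 and -1.85. FES1, an exchange factor for Hsp70, had -1.20 and 0.44, and BTN2, of protein sorting, had -1.86 and 0.42.

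At 13.5 mg/ml SAM3 was at 62.2 in the higher and 40.3 in the lower set, against 71.8 and 164 without drug. CHA1 was at 58.2 in the higher and 44.3 in the lower set at 13.5 mg/ml, against 31.6 and 73.2 without drug. FES1 was at 53.9 in the higher and 90.2 in the lower set at that dose, against 106 and 54.3 without drug. In SAM3, CHA1 and FES1 the order of the sets at the top dose was the reverse of that without drug.

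**Figure D4:**
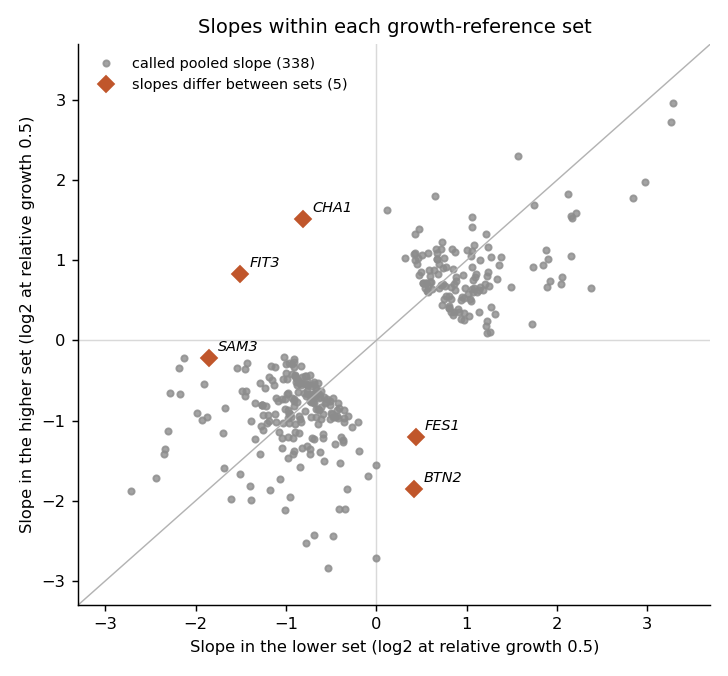
Slope in the higher growth-reference set (vertical axis) against the slope in the lower set (horizontal axis), both in log2 units at a relative growth of 0.5 against 1, for the 338 genes with a called slope and for the 5 labelled genes whose slopes differ between the sets. Of the 338 genes 337 lie in the quadrants where both slopes have one sign, and CHA1 lies outside them at 1.52 and -0.81.

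The LiCl slope was set against the slopes of the 3 other drugs given alone, fitted in one model with the cycloheximide (22 wells), myriocin (17 wells at a relative growth of at least 0.35) and rapamycin (25 wells) gradients. Cycloheximide blocks translation, myriocin blocks sphingolipid synthesis and rapamycin inhibits the TORC1 kinase. The LiCl slope differed from the cycloheximide slope in 260 features (5.18%), 2.05% higher and 3.13% lower with LiCl. It differed from myriocin in 826 (16.5%), 6.98% higher and 9.49% lower, and from rapamycin in 386 (7.7%), 2.67% higher and 5.02% lower. A LiCl slope beyond all 3 other slopes in one direction, by at least 1.5-fold each and with the largest of the 3 p-values past the adjusted threshold, was found in 25 features (0.499%), 15 higher (0.299%) and 10 lower (0.199%). With all wells held to about the growth range of the LiCl gradient 11 were found, 7 higher and 4 lower, and without libraries under 150000 reads 52, 23 higher and 29 lower.

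Among the 15 higher features, TKL2 had 3.01 with LiCl against 0.51, 0.12 and -0.50 with cycloheximide, myriocin and rapamycin. ALD3 had 2.33 against 0.51, 0.00 and -0.18, and CTT1 had 1.64 against 0.46, -0.12 and -0.69. VHS3 had 0.84 with LiCl and was negative with each of the other drugs, at -0.20, -0.35 and -0.17. The mitochondrial peroxiredoxin gene PRX1 had 0.83 against -0.01, 0.04 and 0.00, and FMP43, now MPC3, a mitochondrial pyruvate carrier subunit, had 1.46 against -0.02, -0.88 and -0.14.

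Among the 10 lower features, MET16 had -1.47 with LiCl against 0.05, 0.32 and 0.02 with cycloheximide, myriocin and rapamycin, and MET6 had -1.51 against 0.32, 0.13 and -0.23. HIS5 had -0.95 against 0.24, 0.16 and -0.11, and BNA1 had -1.18 against -0.44, 0.36 and -0.38. The ribosomal protein gene RPS22B had -0.83 against 0.07, 0.31 and 0.02. Over whole lists the median slope of the methionine cycle was -0.76 with LiCl against -0.01, 0.03 and 0.03, and that of phosphate genes -0.49 against 0.13, -0.31 and -0.41. The open reading frames YOR053W, YKL202W, YNL276C and YBR116C in the 25 lie beside VHS3, MNN4, MET2 and TKL2 by their systematic names, and reads of each pair may not be separable.

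**Figure D5:**
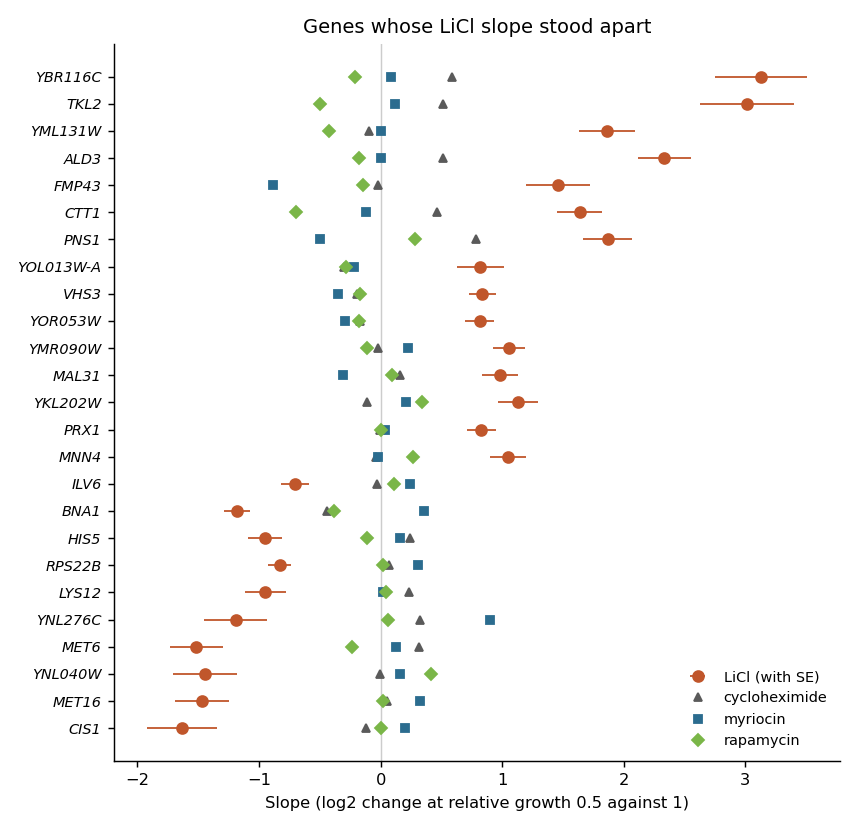
Slope on growth inhibition (log2 units at a relative growth of 0.5 against 1, horizontal axis) of the 25 genes whose LiCl slope lay beyond those of the other drugs (one gene per line), with bars of 1 standard error for LiCl. LiCl slopes run from -1.63 for CIS1 to 3.13 for YBR116C.

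LiCl alone was also present in 4 wells of the series' other experiments with LiCl, at 11.9 mg/ml and 15.7 mg/ml and relative growths of 0.493 to 0.538, beside 4 drug-free wells of the same experiments at 0.997 to 1.03. None of these 8 wells was in the gradient. LiCl against no drug gave 711 calls there (14.2%), 391 higher (7.8%) and 320 lower (6.38%). The fit had a term for the experiment and none for the growth-reference set. In the experiment with 15.7 mg/ml both drug-free wells were in the lower set, while the LiCl wells were 1 in each set. The part of the set in these calls was not tested. Of the 338 slope calls 321 had the same sign, a count given without the share over all features. The calls shared were 52.96% of the slope calls and 25.2% of the 711.

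SPL2 was at 11.5 to 21.9 in the LiCl wells (median 13.8) and at 128 to 262 in the drug-free wells (median 165) of those experiments, a log2 difference of -3.46 ± 0.247. HXT1 was at 46.6 to 301 (median 178.6) with LiCl and at 6.69 to 25.7 (median 11.6) without, a difference of 3.35 ± 0.268. In both genes the groups did not overlap. MET6 was at 19.3 to 33.2 (median 23.5) with LiCl and at 128 to 289 (median 138) without, and PHO5 at 16.5 to 41.2 (median 28.1) and 131 to 202 (median 158), again without overlap. TKL2 was at 14.6 to 300 (median 156) with LiCl and at 3.38 to 66.7 (median 18) without, and here the groups overlapped (difference 2.24 ± 0.240, limma adjusted p = 0.000132).

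LYS2 and HIS5, both with a called slope in the gradient, were not called in those wells. LYS2 was at 22.6 to 44.8 (median 37.7) with LiCl and at 12.7 to 59.8 (median 30.5) without, a difference of 0.32 ± 0.230, and HIS5 at 44.6 to 61.1 (median 57.3) and 53.7 to 121 (median 77.7), a difference of -0.50 ± 0.173 (limma, adjusted p = 0.341 and 0.0616). The groups of both genes overlapped. BDH2 was at 64.2 to 286 (median 158) with LiCl and at 49.7 to 361 (median 175.6) without.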

How the data were processed

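The authors deposited one table of 6717 features by 238 libraries, whose values are a signal: unique-molecule counts quantile-normalized across libraries, as the values show (every column peaks at 17026.2 and column totals are 595181 to 596851). Per the submitters' processing notes TopHat, UMI-tools and featureCounts were used with build R64. Tool versions and how strand and multiply matching reads were handled were not given in the sources used here. Libraries carried molecular identifiers of 4 bases and were sequenced as 50-base single reads, per the labels' protocols. Gene names were matched to RefSeq for 6020 features, and 697 had no match.

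A count test had been planned; since the values are normalized, limma 3.58.1 in R 4.3.3 was used on log2(value + 1) instead, with a mean-variance trend and Benjamini-Hochberg adjustment over the 5015 features with a mean of at least 10 over all 238 libraries. Quantile normalization makes all libraries share one distribution, which removes any change in total RNA and gives genes without reads a value above 0 in shallow libraries. Depth was estimated from the value at which genes with 30 reads tie, since read totals were not in the table; it limits the precision of low values. Calls needed an adjusted p under 0.05 and a 1.5-fold change (curvature needed only the p). The scripts were tested on simulated data. The median correlation between gradient libraries was 0.965, and no pair was identical.

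Nothing in the labels says that the wells came from separate starting cultures, so p-values measure the spread between wells. Members and gene lists were chosen with earlier results of these data known. Genes named are the 12 largest rises and 12 largest falls with the same sign in both sets, the 8 largest late changes, the 6 largest in each of the curvature, set and drug comparisons, up to 4 called members of each list, and 12 genes of interest whatever their value; others in the text were chosen after their values were seen. Of the 12 largest rises, PNS1 (slope 1.87), YML131W (1.86), YHR033W and RRT15 are not described, and of the 12 largest falls OSW2, YOR385W, CIS1 and BDS1. YML131W was also among the 6 largest in the drug comparison. Some genes named by the other parts of the rule are not described either. RRT15 and 4 more called reading frames lie beside the ribosomal RNA genes and may share reads. Alternatives were a pseudocount of 10, no filter on low values, no set term, final OD600 as a term, concentration in place of growth, each set alone, the LiCl wells alone, no libraries under 0.25 of the median depth (142211 reads), each library left out in turn and, chosen after seeing the data, no libraries under 150000 reads.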

Additional observations from a re-analysis of the deposited data

Results flagged for a closer look

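In 138 groups of 6, 8 or 10 wells 10 held a well far from the others. The rule flags about 1 in 20 groups where all wells of a group are alike. Wells of a tier differ in dose, so that rate does not apply to genes that change with dose. The groups are not independent, since the same wells recur across genes. In 4 the well was the higher-set library at 9.24 mg/ml, the shallowest of the gradient: HXT1 was at 15.0 there (high-tier median 54.4), GRE2 at 3.13 (54.7), PHO5 at 145 (56.7) and PHO11 at 154 (47.4). The shallow higher-set library at 4.90 mg/ml stood apart in depth itself, with 78611 reads against a middle-tier median of 788572, and in ENA1, at 20.3 (56.7).

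The remaining 4 were in libraries of ordinary depth. PHO84 was at 40.3 in the lower-set well at 13.5 mg/ml (high-tier median 75), and SAM1 at 44.8 in the lower-set well at 7.17 mg/ml (middle-tier median 63.9). RCN1 was at 41.5 in the lower-set well at 4.31 mg/ml (middle-tier median 24.5), and GPD1 at 375 in the higher-set well at 3.80 mg/ml (low-tier median 307). The library of that GPD1 well had 335606 reads, the fewest of the low tier (median 695412).

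The slopes of 5 genes differed between the growth-reference sets by a test of the difference itself. The higher-set slope minus the lower-set slope was 2.33 for CHA1 (limma, adjusted p = 0.00341), 2.33 for FIT3 (0.0476), 1.63 for SAM3 (0.00391), -1.64 for FES1 (0.00341) and -2.28 for BTN2 (0.0175). In the higher set BTN2 was at 83.5 at 13.5 mg/ml against 155 without drug, and in the lower set at 82.3 against 31.97. Final OD600 also differed between the sets, at 0.720 to 1.48 in the higher and 0.425 to 0.760 in the lower set, and its part in these differences was not tested.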

How the results depend on the processing

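Without the 3 shallowest libraries calls numbered 522 for the slope, 1 for the low tier against no drug, 119 for the middle and 373 for the high tier against no drug, 41 for middle against low, 103 for high against middle, 1 early, 73 late, 103 curved and 8 between sets. Without libraries under 0.25 of the median depth they numbered 1 (low), 88 (middle) and 327 (high) against no drug, 26 for middle against low, 110 for high against middle, 1 early and 80 late. A pseudocount of 10 gave 5 for middle against low, 35 for high against middle and 28 late. No filter on low values gave 1 for the low tier, no set term gave 3 for the middle tier against no drug, and final OD600 as a term gave 1 for the low tier and 4 for middle against low. Curvature gave 1 call with the LiCl wells only and 96 on concentration. With dose as a block the sets differed in 22 genes. The slope gave 531 calls in the lower set only and 52 in the higher set only, which holds all 3 shallow libraries. The comparison with the other drugs gave 11 calls when wells were held to about the growth range of the LiCl gradient and 52 without libraries under 150000 reads. The cause of these changes was not tested.

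With each library left out in turn the slope gave 293 to 426 calls, the low tier against no drug 0 to 1, the middle tier 0 to 32, the high tier 4 to 242, middle against low 0 to 18, high against middle 33 to 95, early responders 0 to 1, late responders 23 to 72, curvature 17 to 113, the sets 4 to 22, the other drugs 15 to 38 and the other experiments 463 to 684. The slopes of 121 named genes gave 3146 values this way, of which 145 lost the call, 1 gained it and none turned; 33 genes lost it at least once, 17 of them without 1 particular library. Under 10 other settings 1027 of 1210 values kept their call or lack of one, 173 lost the call, 9 gained it, and 1 turned (CHA1, -0.81 in the lower set only). In both counts turned means a change of sign with a call in either fit. Changes of sign without a call in either fit were not counted as turned. An example is RRP4, at -0.20 in the main fit and 0.65 without the 3 shallowest libraries. No pairing by replicate was possible because the labels give no replicate numbers. The set term joins the 13 wells of a set, and only the dose block above pairs the wells of a dose. Depth limits genes at low values, and only 2 drug-free wells limit every tier comparison with no drug.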
